A study of Mus musculus with 2 samples.

Results

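The genes of the major histocompatibility complex (MHC) that present peptides, with the machinery that feeds them, were examined in RNA from GFP-positive cells sorted from mouse dorsal skin. Members were every gene name in both count files that begins with H2-, together with B2m, Cd74, Ciita, Nlrc5, Tap1, Tap2, Tapbp, Psmb8, Psmb9, Psmb10, Cd1d1, Cd1d2 and Mr1. Names with -ps were left out, which removed 4 names and left 56 genes of 50559. Of these, 38 belong to class I (2 classical heavy chains, 28 nonclassical heavy chains and 8 genes of the machinery), 12 to class II (5 chains and 7 accessory genes), 3 are CD1 or MR1 genes, and 3 carry an H2 name without being one of these. At least 1 count was found for 52 members, 47 had 10 or more counts in total and 36 reached 1 CPM in both libraries, CPM being counts scaled to a common library total.

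There were 2 libraries, replicates of a single group, without a control. Both came from live GFP+ cells of mice with the genotype Polr2b.fl.fl.GFP; K14Cre, aged 21 days after birth, when hair follicles rest (telogen). The Cre recombinase is driven by the keratin 14 promoter, which is active in basal epidermis and its follicular lineages. The labels give both libraries this same genotype. The labels give no strain, which matters here because MHC alleles differ between mouse strains and the counts were made on a single reference genome. The effect of such differences on the counts was not tested. Replicate 1 held 36692204 counts and replicate 2 held 33489967 counts. Xist had 112587 counts in replicate 1 and 11 in replicate 2, while the Y-linked gene Uty had 0 counts in replicate 1 and 2394 in replicate 2. By these genes replicate 1 was female and replicate 2 male, so the libraries came from different animals. The genes do not show how many animals went into each library. Each difference between the replicates is therefore also a difference of sex, and sex and animal cannot be told apart here. Nor do the labels say whether the animals of the 2 libraries carry the same MHC alleles. The label calls the cells keratinocytes. The 8 keratinocyte markers examined summed to 14004 TPM (the same after division by gene length) in replicate 1 and 22352 TPM in replicate 2, but the 10 macrophage markers summed to 12110 and 13746 TPM, so RNA of other cells was present in the sorted fraction.

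Class I molecules pair a heavy chain with beta-2-microglobulin (B2m) and are made by nearly all nucleated cells. Their peptides are cut by the proteasome, pumped into the endoplasmic reticulum by the transporter Tap1-Tap2 and loaded with the help of tapasin (Tapbp), and Nlrc5 is the transcriptional co-activator of this set. Class II molecules pair an alpha with a beta chain, travel with the invariant chain Cd74 to endosomes, receive peptide there under the editor H2-DM, and depend on the co-activator Ciita. In skin, class II is known from Langerhans cells, dermal dendritic cells, macrophages and B cells, whereas keratinocytes make it mainly under interferon gamma.

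Promoter sequence is shown for 3 class I and 3 class II members, because both classes are known to be read through a shared module of X and Y boxes, and class I promoters also through an interferon element. The RefSeq promoter table (build GRCm38.p6, not the mm39 build of the counts) held windows for 38 of the 56 members, and each window spans 250 bases before to 50 bases after a transcription start. Printed are the 160 bases before the start, 5′ to 3′ on the strand of the gene. Capitals mark matches, on either strand, to the Y box core GATTGG, the X1 box core AACNGNTG, the X2 box core TGACG and the interferon element. The first form of that element was GAA, any 2 bases, then GAAAC, and the second GAAA, any 2 bases, then GAAA. These forms can overlap each other, and TGACGTCA counts for both strands. H2-K1 lies at chr17:34000334-34000493 (minus strand), H2-D1 at chr17:35262934-35263093 (plus), B2m at chr2:122147527-122147686 (plus), H2-Aa at chr17:34287824-34287983 (minus), H2-Eb1 at chr17:34305707-34305866 (plus) and H2-DMb1 at chr17:34153031-34153190 (plus).
H2-K1: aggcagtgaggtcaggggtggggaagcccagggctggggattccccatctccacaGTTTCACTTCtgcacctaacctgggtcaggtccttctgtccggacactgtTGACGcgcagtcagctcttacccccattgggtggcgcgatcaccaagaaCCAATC
H2-D1: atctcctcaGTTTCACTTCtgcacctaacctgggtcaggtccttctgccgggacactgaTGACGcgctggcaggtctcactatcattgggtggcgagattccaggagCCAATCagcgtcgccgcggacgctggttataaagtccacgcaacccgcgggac
B2m: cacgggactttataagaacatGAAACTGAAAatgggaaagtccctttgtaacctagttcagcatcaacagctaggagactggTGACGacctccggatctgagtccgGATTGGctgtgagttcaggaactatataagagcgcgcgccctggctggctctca
H2-Aa: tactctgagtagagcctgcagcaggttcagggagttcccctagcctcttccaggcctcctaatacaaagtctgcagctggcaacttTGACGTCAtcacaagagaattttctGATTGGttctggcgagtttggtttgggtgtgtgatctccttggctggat
H2-Eb1: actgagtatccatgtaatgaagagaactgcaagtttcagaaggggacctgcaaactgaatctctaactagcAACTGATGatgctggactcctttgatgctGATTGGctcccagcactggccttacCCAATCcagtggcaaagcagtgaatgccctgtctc
H2-DMb1: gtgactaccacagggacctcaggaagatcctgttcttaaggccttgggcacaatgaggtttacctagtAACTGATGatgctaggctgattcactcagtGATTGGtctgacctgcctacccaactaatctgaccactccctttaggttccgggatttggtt

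The Y box letters were found in the windows of 19 of 28 class I genes and 8 of 8 class II genes, beside 16.1% of all 32851 promoter windows. The matches to GATTGG differed in orientation. In class II all 8 genes had GATTGG on the strand of the gene, as in H2-Aa, where it begins 49 bases before the start, and only H2-Eb1 also had the reverse form. In class I, 17 of the 19 genes had it in reverse as CCAATC, as in H2-D1, where it begins 53 bases before the start. B2m and Psmb9 had the forward form alone, and H2-T22 had both. This orientation is that of the letters searched. The printed windows of H2-K1 and H2-D1 also hold ATTGG on the strand of the gene, after TGACG. It was not counted, because a C and not a G comes before it. Which of these letters serve as the Y box was not tested. The X1 letters were in 6 class I and 4 class II windows (10.5% of all windows), and the X2 letters in 14 class I windows and 1 class II window (20.8% of all). The first interferon form was in 8 class I windows, H2-K1, H2-D1, H2-Q4, H2-Q6, H2-Q7, H2-Q10, H2-M2 and H2-M3, and the second in B2m, H2-T22 and H2-T23, beside 1.73% and 3.44% of all windows. Neither form was in a class II window. The windows of Tap1 and Psmb9 overlap, and their Y box match is the same site read from opposite strands, as is their X2 match. A match is a string of letters and was not tested as a binding site, and several of these genes are duplicates of one another.

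Class I RNA exceeded class II RNA in both libraries. Scaled by gene length, the 38 class I genes summed to 6537 TPM in replicate 1 and 7073 TPM in replicate 2, and the 12 class II genes to 1942 and 1348 TPM. The class I sum was thus 3.37-fold the class II sum in replicate 1 and 5.25-fold in replicate 2, a log2 ratio of 2.07 ± 0.45 (SD, n = 2). The smallest p that a two-sided exact sign-flip test over 2 libraries allows is 0.5, and levels are therefore given with their spread alone. Much of the class I sum was B2m. For the presenting chains alone the ratio was smaller, 1.72-fold in replicate 1 and 3.46-fold in replicate 2 (log2 1.28 ± 0.71), and for H2-K1 and H2-D1 against H2-Aa, H2-Ab1 and H2-Eb1 it was 0.99 ± 0.74 on the log2 scale. Because the median over members with 10 or more counts weighs each gene alike, the difference of class medians was lower as well, at 0.91 ± 0.33 on the log2(TPM + 0.5) scale. That filter kept 31 of the 38 class I genes and all 12 class II genes, which raises the class I median. Without the filter, the middle class I genes in replicate 1 were H2-M2 and H2-Q6, at 6.60 and 6.54 TPM. These lay below the middle class II genes H2-Ea and H2-DMa, at 10.7 and 8.98 TPM. In replicate 2 H2-Q5 and H2-M2, at 8.54 and 8.49 TPM, stood beside H2-Ea and H2-DMa, at 8.53 and 6.78 TPM. Class I was higher in each mean above, but the distance depended on the genes taken. The order of the medians in replicate 1 depended on the filter.

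**Figure D1:**
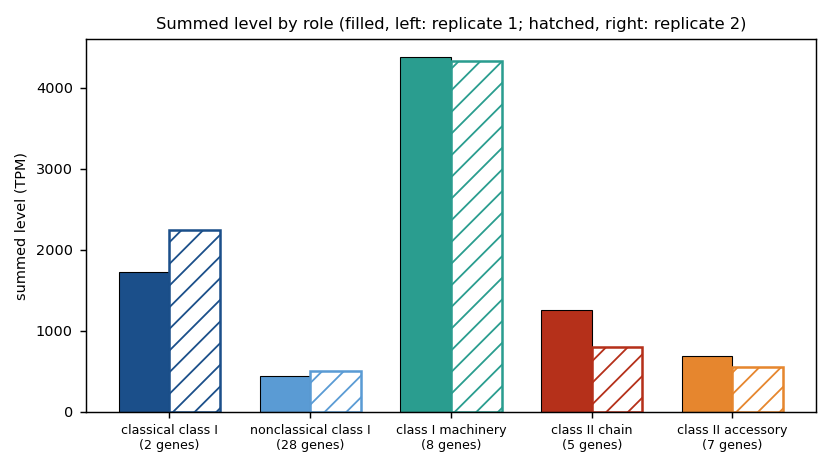
Summed TPM of 5 groups of genes, class I on the left and class II on the right, in replicate 1 (filled) and replicate 2 (hatched). The class I machinery is the tallest pair at 4374 and 4322 TPM because it holds B2m, and the class II chains stand at 1260 TPM in replicate 1 and 796 TPM in replicate 2.

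The classical heavy chains H2-D1 and H2-K1, which present intracellular peptides to CD8 T cells, led the class I heavy chains. H2-D1 had 1298 TPM in replicate 1 and 1701 TPM in replicate 2, and H2-K1 had 427 and 543 TPM. By mean TPM they lay at the 99.6 and 98.5 percentile of the 15833 genes that reached 1 CPM in each library. H2-D1 was 3.04 times H2-K1 in replicate 1 and 3.13 times in replicate 2, so the balance of the pair hardly moved while both levels did. Together they made up 79.8% of all class I heavy chain TPM in replicate 1 and 81.6% in replicate 2.

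Of the 28 nonclassical heavy chains, 14 reached 1 CPM in both libraries, and the mean levels of these ran from 1.89 TPM for H2-Q1 to 170 TPM for H2-Q4. H2-T23, which encodes the Qa-1 molecule that is read by the NKG2A receptor of natural killer cells, had 160.9 TPM in replicate 1 and 160.6 TPM in replicate 2. H2-Q4, a heavy chain of the Q region, had 146 and 194 TPM. Both thus stood near the class II chain H2-Ab1 in abundance, and their order reversed between the libraries. The next members were far lower, led by H2-T22, a ligand of gamma-delta T cells, at 28.8 ± 2.33 TPM. H2-Q7, one of the genes of the Qa-2 antigen, had 18.8 ± 3.64 TPM, and H2-M3, which presents N-formylated peptides of bacteria and mitochondria, had 18.3 ± 3.27 TPM. H2-T24 had 17.5 TPM in replicate 1 and 17.4 TPM in replicate 2.

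Other nonclassical genes were lower still. H2-K2 had 11.9 TPM in replicate 1 and 14.9 TPM in replicate 2, H2-Q6 had 6.54 and 9.72 TPM, and H2-Q5 had 7.38 and 8.54 TPM. H2-M2 had 6.60 and 8.49 TPM, and H2-T10, a relative of H2-T22, had 5.76 and 6.24 TPM. H2-Q9, also a Qa-2 gene, had 75 counts in replicate 1 and 70 in replicate 2, H2-Q1 had 92 and 77 counts, and H2-Q2, just under the limit, had 37 and 26 counts. RefSeq lists H2-Q5, H2-K2, H2-T10 and H2-Bl as transcribed pseudogenes.

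Some nonclassical members are known from narrow tissues. H2-Q10, a secreted heavy chain of liver, had 4.13 TPM in replicate 1 and 5.13 TPM in replicate 2, or 90 and 102 counts. H2-T3, which encodes the TL antigen of intestinal epithelium, had 9 and 3 counts. The M10 and M1 genes, known from vomeronasal neurons, were at or near the floor. H2-M1, H2-M10.1 and H2-M10.5 had no count in either library, and the limit set by 3 counts is 0.0818 CPM for replicate 1, against 0.0896 CPM for replicate 2. H2-M10.2 had 16 and 10 counts, H2-M10.4 had 4 and 13, and H2-Q3, H2-M10.3, H2-M10.6 and H2-M11 had at most 2 in a library. H2-Bl, H2-M5 and H2-M9 had more counts in replicate 1, with 31 against 5, 70 against 16 and 29 against 8 in replicate 2.

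The heavy chain genes share sequence, and the sources used here do not say how reads matching several genes were counted. In the reference transcripts of GENCODE release M21, the share of 100-base stretches that also occur in another gene was 3.59% for H2-D1, 0.957% for H2-K1 and 3.15% for H2-T23. It was highest for the Q genes, at 14.0% for H2-Q5, 12.0% for H2-Q7 and 10.8% for H2-Q6, and 22 of 37 class I genes found there shared none. Among the 11 class II genes found there, only H2-DMb1 and H2-DMb2 shared any, 11.3% and 10.3%, with each other. Counts of these genes carry that uncertainty.

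**Figure D2:**
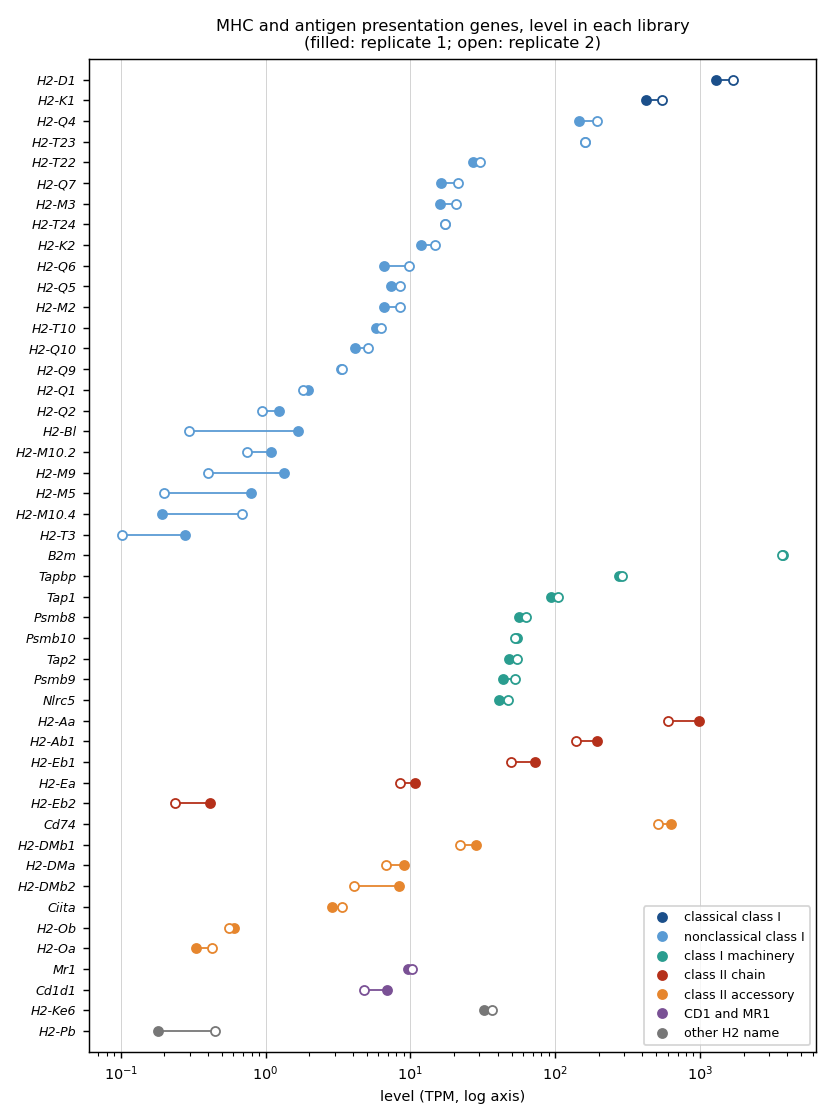
Level in TPM (log axis) of the 47 members with 10 or more counts in total, by role, in replicate 1 (filled) and replicate 2 (open). B2m, H2-D1, H2-Aa, Cd74 and H2-K1 stand highest, and the class II chains are shifted to the right in replicate 1 while H2-D1 and H2-K1 are shifted to the right in replicate 2.

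B2m, the light chain of class I, was the most abundant member at 3762 TPM in replicate 1 and 3659 TPM in replicate 2. That was 1.74 times the sum of all class I heavy chains in replicate 1 and 1.33 times in replicate 2. Tapbp had 275 and 288 TPM, Tap1 had 93.6 and 104 TPM, and its partner Tap2 had 48.2 and 54.3 TPM. Tap1 was 1.94 times Tap2 in replicate 1 and 1.92 times in replicate 2. All 8 genes of the class I machinery reached 1 CPM in both libraries.

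The immunoproteasome subunits Psmb8, Psmb9 and Psmb10 can replace Psmb5, Psmb6 and Psmb7 of the constitutive proteasome, for example when interferon is present. Psmb8 had 56.3 TPM in replicate 1 and 63.1 TPM in replicate 2, Psmb9 had 43.8 and 53.0 TPM, and Psmb10 had 54.7 and 52.9 TPM. Relative to the subunit it replaces, Psmb8 stood at 1.25 and 1.26 times Psmb5 and Psmb9 at 0.638 and 0.713 times Psmb6. Psmb10 was lower, at 0.315 and 0.304 times Psmb7. RNA for all 3 exchangeable subunits was thus present beside that of the constitutive ones, in whichever cells of the fraction made it.

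Nlrc5 and Ciita, the co-activators of class I and class II, differed widely in level. Nlrc5 had 41.0 TPM in replicate 1 and 46.9 TPM in replicate 2. Ciita had 2.86 and 3.35 TPM, and was 1 of the 9 class II genes that reached 1 CPM in both libraries. Nlrc5 was 14.3 times Ciita in replicate 1 and 14.0 times in replicate 2. Ciita is known to be read from separate promoters in myeloid cells, B cells and interferon-treated cells, and 1 count per gene cannot tell them apart.

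Class II RNA was dominated by H2-Aa, the alpha chain of the I-A molecule that presents endosomal peptides to CD4 T cells, and by Cd74. H2-Aa had 983 TPM in replicate 1 and 598 TPM in replicate 2, and Cd74 had 632 and 515 TPM. The beta chain H2-Ab1 had 193 and 140 TPM. Although alpha and beta chains pair in equal numbers as proteins, H2-Aa RNA stood at 5.08 times H2-Ab1 in replicate 1 and 4.27 times in replicate 2. The I-E beta chain H2-Eb1 had 72.5 and 49.4 TPM. H2-Ea, the I-E alpha chain, which strains of the b haplotype do not express and RefSeq lists as a transcribed pseudogene, had 10.7 and 8.53 TPM, or 165 and 120 counts. H2-Eb2 had 25 and 13 counts.

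The peptide editor H2-DM was measured through its alpha chain H2-DMa, with 8.98 TPM in replicate 1 and 6.78 TPM in replicate 2, and its beta chains H2-DMb1, with 28.6 and 22.0 TPM, and H2-DMb2, with 8.36 and 4.09 TPM. The deposited length of H2-DMa is 8325 bases, against 1284 for H2-DMb1, which lowers its TPM. In CPM H2-DMa stood at 30.2 and 22.7. The inhibitor of the editor, H2-O, known mainly from B cells and dendritic cells, was near the floor, with 6 and 7 counts for H2-Oa and 27 and 23 counts for H2-Ob.

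Of the members outside both classes, Mr1, which presents vitamin B metabolites to MAIT cells, had 9.65 TPM in replicate 1 and 10.3 TPM in replicate 2. Cd1d1, which presents lipids to natural killer T cells, had 6.84 and 4.82 TPM, and its copy Cd1d2 had no count. H2-Ke6, a steroid dehydrogenase gene that lies in the MHC, had 32.4 and 36.7 TPM, and 61.6% of its 100-base stretches also occur in the gene model Gm20427. The RefSeq pseudogenes H2-Pa and H2-Pb had 1 and 1 and 7 and 16 counts.

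The second comparison asked whether both classes kept their levels from library to library. With the libraries scaled by their total counts the classes moved in opposite directions, although scaling to keratinocyte or Langerhans cell markers, which shifts all genes alike, turned one class or the other. In an exact binomial comparison (two-sided, adjusted by Benjamini-Hochberg over all 23690 genes with 10 or more counts), 7 of the 12 class II genes were higher and 1 lower in replicate 1, whereas 4 of the 31 class I genes tested were higher and 14 lower. The background was 27.2% of all tested genes higher and 16.9% lower in replicate 1, or 44.1% in either direction. On the log2(CPM + 0.5) scale, the median difference of replicate 1 minus replicate 2 was 0.38 for the 12 class II genes and -0.16 for the 31 class I genes, beside 0.07 for all tested genes. The test compares these 2 libraries and no condition, and covers counting error only. In bulk RNA, fewer cells of a type and less RNA per cell cannot be told apart.

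The class II genes higher in replicate 1 were H2-Aa, H2-Ab1, H2-Eb1, Cd74, H2-DMa, H2-DMb1 and H2-DMb2. H2-Aa had 448 CPM in replicate 1 and 272 CPM in replicate 2, a log2 ratio of 0.72 with an exact 95% counting interval of 0.68 to 0.76. H2-Eb1 stood at 0.56 (0.45 to 0.67) and H2-Ab1 at 0.47 (0.39 to 0.55). Cd74 moved less, at 0.30 (0.26 to 0.34), with 361 CPM in replicate 1 and 293 CPM in replicate 2. The interval of Cd74 thus did not meet those of H2-Ab1, H2-Eb1 and H2-Aa, and Cd74 was 0.643 times H2-Aa in TPM in replicate 1 and 0.861 times in replicate 2. H2-DMb2 had the largest ratio of the class, 1.03 (0.69 to 1.39), at 224 and 100 counts, beside 0.38 for H2-DMb1 and 0.41 for H2-DMa. H2-Ea, H2-Eb2 and H2-Ob were not called, and H2-Oa was not either, at 13 counts in total.

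Ciita went the other way from the genes it controls, at 414 counts in replicate 1 and 442 in replicate 2. Its log2 ratio was -0.23 (-0.42 to -0.03) with a binomial adjusted p of 0.0497. The adjusted p became 0.0667 without the filter on low counts, 0.0069 with TMM factors and 0.0056 with DESeq2 size factors. Scaled to macrophage markers, 0 class II genes were lower, so its call depends on both the filter and the scaling. Nlrc5 was lower in replicate 1 as well, at -0.19 (-0.25 to -0.13), with 131 and 150 CPM.

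Among class I genes, H2-D1 had 910 CPM in replicate 1 and 1190 CPM in replicate 2, a log2 ratio of -0.39 (-0.41 to -0.37), and H2-K1 followed at -0.35 (-0.38 to -0.31). H2-Q4 (-0.41), H2-Q7 (-0.40), H2-M3 (-0.36), H2-K2 (-0.32), H2-Q6 (-0.57) and H2-T22 (-0.16) were lower in replicate 1 too. H2-T23 and H2-T24 were level between the libraries, at 0.01 each with intervals of -0.07 to 0.08 and -0.14 to 0.15. The sum of all heavy chain counts stood at -0.35 (-0.36 to -0.33) and that of the machinery at -0.01 (-0.03 to 0.00), but this sum is mostly B2m, and the median was -0.16 for the tested genes of either group. Tap1 and Tap2 stood at -0.16 and -0.17, Psmb9 at -0.27, Psmb8 at -0.16 and Tapbp at -0.07, all called lower in replicate 1, and Psmb10 was not called. B2m was called higher at 0.04 (0.02 to 0.06), but was lower at -0.034 with TMM scaling and at -0.040 with DESeq2 size factors. The other class I genes called higher were H2-Bl, H2-M5 and H2-M9, whose low counts are given above.

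**Figure D3:**
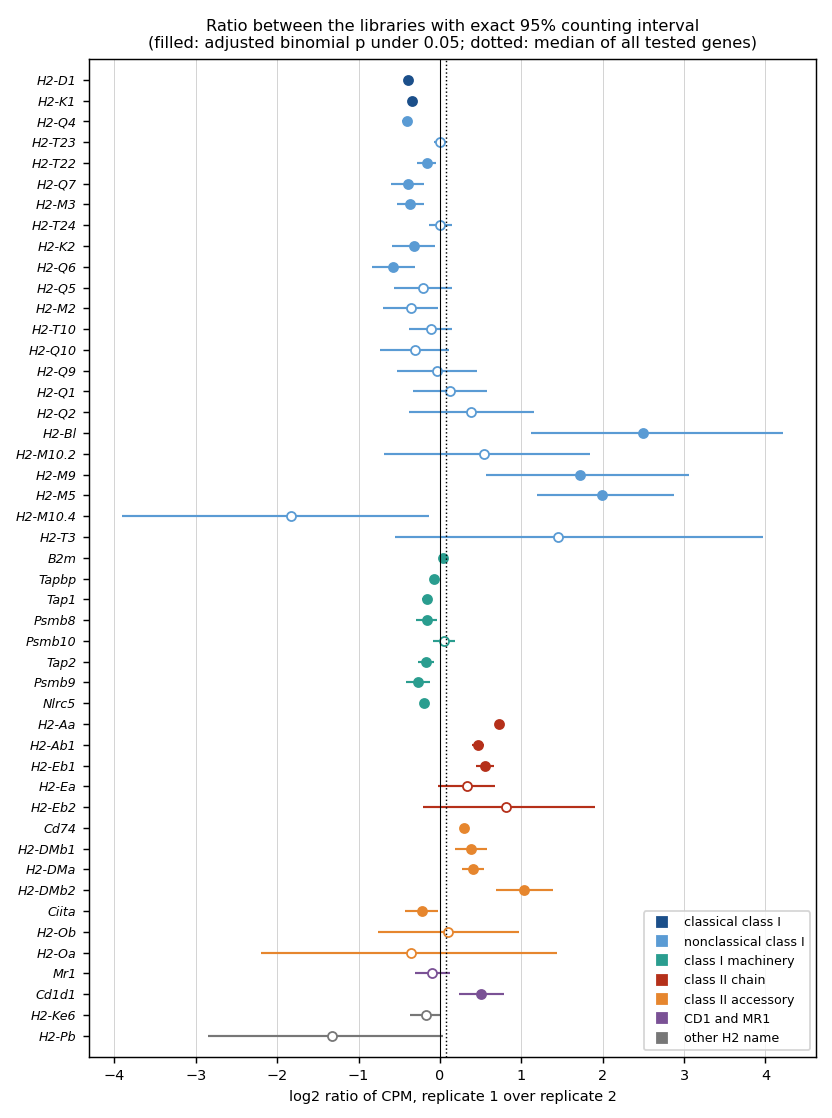
Log2 ratio of CPM, replicate 1 over replicate 2, for the 47 members with 10 or more counts, with exact 95% counting intervals, without a pseudocount. Filled points passed the adjusted binomial test, and the dotted line marks the median of all tested genes at 0.07. The class II genes called lie to the right of 0 apart from Ciita, and the heavy chains called lie to the left apart from H2-Bl, H2-M5 and H2-M9.

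Because of these shifts, class II made up 22.2% of the counts of both classes in replicate 1 (95% Clopper-Pearson interval 22.0 to 22.4%) and 15.2% in replicate 2 (15.0 to 15.4%). For the presenting chains alone the shares were 27.1% (26.8 to 27.4%) and 15.6% (15.4 to 15.9%). The summed class I ratio lay 0.67 below the summed class II ratio on the log2 scale (-0.70 to -0.65), which is a 1.59-fold change of their balance. It does not depend on how the libraries are scaled to each other. It was -1.01 for the presenting chains and -0.91 without Cd74 and B2m.

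Set against the spread between the libraries over all genes, no member passed after adjustment. That spread came from the same 2 libraries that were compared, so moderate ratios could hardly pass. H2-Aa, at a log2 ratio of 0.64 by edgeR, had an unadjusted p of 0.17 in its exact test. The absence of calls is therefore no evidence that the members were level. When the dispersion was estimated from all tested genes, edgeR's exact test called 0 of the 47 tested members at an adjusted p under 0.05 and 66 genes in all (0.279%), 0.19% higher and 0.0886% lower in replicate 1. At an unadjusted p under 0.05 it had 3 of the 47 members, H2-M5, H2-M9 and H2-Bl, beside 1702 of all 23690 genes, so the members' share was near the background. Beyond 1.5-fold lay 2 of the 36 members at 1 CPM in both libraries, H2-Aa and H2-DMb2, both higher in replicate 1, where 10.8% of the 15833 such genes were higher and 3.63% lower.

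The sign of a ratio is relative to the scaling, which moves all genes of a library by 1 factor. With TMM factors, 3 class I genes were higher and 17 lower in replicate 1 and 7 class II genes were higher and 1 lower, beside 21.4% higher and 22.7% lower of all tested genes. Scaled to the 10 macrophage markers, 7 class I genes were higher and 6 lower and 8 class II genes higher and 0 lower, beside 40.2% higher and 9.46% lower of all genes. Scaled to the 8 keratinocyte markers, which moves the median of all genes to 0.60, 26 class I genes were higher and 0 lower and 10 class II genes higher and 0 lower, beside 73.3% and 1.27% of all genes, with class medians of 0.47 and 0.96. Scaled to the 4 Langerhans cell markers, which moves it to -0.47, 2 class I genes were higher and 25 lower and 1 class II gene was higher and 5 lower, beside 4.66% and 59.8% of all genes, with class medians of -0.77 and -0.26. These marker scalings were chosen after seeing the data. They leave the distance of a class from the median gene as it was, apart from the pseudocount, and so bear on the calls alone.

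Other genes of the pathways were described through lists, for which the background of all tested genes was 27.2% higher and 16.9% lower in replicate 1. The 7 genes of peptide loading and trimming in the endoplasmic reticulum hardly moved as a list, with 2 higher and 1 lower in replicate 1 and a median log2 ratio of 0.01. The chaperone Calr led them at 823 TPM in replicate 1 and 842 TPM in replicate 2, Hspa5 followed at 399 and 391 TPM, and Tapbpl, a relative of tapasin, was lowest at 18.3 and 18.2 TPM. Of 6 proteasome genes, 3 were higher and 0 lower, namely the activator subunits Psme1, Psme2 and Psme3, while the catalytic Psmb5, Psmb6 and Psmb7 were not called. Psmb7 was highest at 174 TPM in both libraries, Psme1 followed at 166 TPM in replicate 1 and 148 TPM in replicate 2, and Psmb5 was lowest at 47.5 ± 3.59 TPM.

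Endosomal genes were split. Of 8 genes of the class II compartment, 3 were higher and 5 lower in replicate 1, with a median of -0.23. Ctss, the protease that cuts Cd74 in antigen presenting cells, was higher at 522 TPM in replicate 1 and 464 TPM in replicate 2. The proteases Ctsb and Ctsd were lower, with 1427 TPM in replicate 1 and 1784 TPM in replicate 2 for Ctsb and 891 and 1252 TPM for Ctsd, and Ifi30, a thiol reductase of the compartment, was lower at 570 and 729 TPM. The ubiquitin ligase Marchf1, which removes class II from the surface, was higher at 14.2 and 11.9 TPM, as was its relative Marchf8, the lowest of the list, at 10.6 and 9.51 TPM.

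Regulators were split too. Of 7 genes of the X box complex and its partners, 1 was higher and 2 were lower in replicate 1, with a median of 0.06, with the Y box factors Nfya and Nfyc highest, at 52.1 and 50.1 TPM and at 27.2 and 25.4 TPM. Rfx5, which binds the X box, was lowest and was lower at 5.76 TPM in replicate 1, against 7.07 TPM in replicate 2. Of 9 genes of interferon gamma signalling, 3 were higher and 6 lower, with a median of -0.11. Ifngr1 had 216 and 234 TPM, Jak1 173 and 192 TPM, and Irf2, the lowest by TPM, 9.22 and 10.8 TPM. The deposited length of Irf2 is 12548 bases, and by mean CPM Socs1 was lowest, at 10.5 against 50.6 for Irf2. Of 6 costimulation genes 5 were tested, and 3 were higher and 1 lower, with a median of 0.21. Cd86 led at 109 TPM in replicate 1 and 94.1 TPM in replicate 2, Cd40 had 26.5 and 32.5 TPM, and Pdcd1lg2 had 3 and 2 counts.

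Marker lists of the cells that can carry class II moved differently from each other. For these lists and those of other cells below, the background was again 27.2% of all tested genes higher and 16.9% lower. All 4 Langerhans cell markers were higher in replicate 1 (median 0.81), summing to 366 TPM in replicate 1 and 231 TPM in replicate 2. Cd207, the defining langerin gene, had 233 and 95 counts, or 10.3 TPM in replicate 1 and 4.60 TPM in replicate 2. Nearly all of the list's sum thus came from Epcam, Cd24a and Mfge8, which are also made by epithelial or other cells. Of 8 dendritic cell markers 1 was higher and 0 lower, namely Cd209a at 272 and 150 counts, and the list summed to 27.3 and 20.3 TPM. The defining dendritic cell genes Flt3, Xcr1 and Clec9a had 15 and 13, 26 and 36, and 8 and 10 counts. Of 5 B cell markers 4 were tested and 1 was higher, Cd79b at 88 and 27 counts, with a sum of 6.68 and 3.54 TPM, and Pax5 had 5 and 0 counts.

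Of the 10 macrophage markers 3 were higher and 5 lower in replicate 1, with a median of -0.03. C1qb had 2707 TPM in replicate 1 and 2730 TPM in replicate 2, and Lyz2 had 3246 and 4743 TPM. The summed ratio of the list was -0.13 (-0.14 to -0.13), against 0.50 (0.48 to 0.52) for class II and -0.17 (-0.18 to -0.16) for class I. All 8 keratinocyte markers were lower in replicate 1, with a summed ratio of -0.64, and all 6 fibroblast markers higher, at 1.01. Of 5 endothelial markers 4 were higher and 0 lower, with a sum of 39.5 and 25.5 TPM. T cell markers gave 0 calls among 3 tested of 7, Trac and Trdc had no count, and Cd4 made up most of the sum of 26.8 and 26.4 TPM. The part of these cell types in the shift of class II and of class I was not tested.

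**Figure D4:**
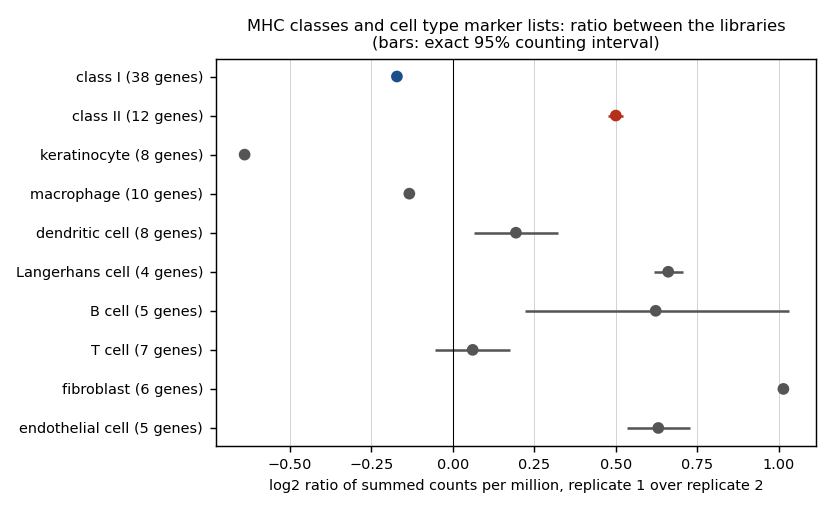
Log2 ratio of summed CPM, replicate 1 over replicate 2, for the class I and class II genes and for 8 cell type marker lists, with exact 95% counting intervals (hidden by the point where narrow). Class II lies at 0.50, and the B cell list at 0.62, the endothelial list at 0.63, the Langerhans cell list at 0.66 and the fibroblast list at 1.01 lie to its right. Class I lies at -0.17, between the keratinocyte list at -0.64 and the macrophage list at -0.13.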

How the data were processed

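RNA of 2 replicate libraries was analysed. The authors deposited raw counts per gene with the gene length, made with featureCounts on build mm39, per the submitters' processing notes. Ribosomal RNA was depleted and paired reads of 150 bases were sequenced, per the labels' protocols. The sources used here name no aligner, annotation, strand setting or treatment of multiply mapping reads, so overlapping and antisense genes may share counts. CPM used the total of all counts and TPM the counts and deposited lengths. Levels are mean ± SD (n = 2). Each gene with 10 or more counts in total had its split between the libraries set against that of all counts (exact binomial test, two-sided), and p-values were adjusted by Benjamini-Hochberg, with a threshold of 0.05. The alternative was edgeR's exact test with an intercept-only dispersion, since 2 libraries of 1 group leave no residual degrees of freedom for a quasi-likelihood test. Ratios of single genes have no pseudocount, and medians use 0.5. Intervals and the floor of 3 counts cover counting error only, since reads carry no molecular identifiers. The labels do not name the animals, and sex-linked genes place the libraries in different ones, with 1 library of each sex, so p-values compare these 2 libraries only. TMM factors, DESeq2 size factors, other filters and marker scalings were tried. Both tests were tested on simulated data. All members are accounted for, and of each other list the 2 highest and the lowest gene by TPM were to be named, while further genes of the lists were chosen after their values were seen. The members and lists were chosen with earlier results of these data known. Promoter windows came from RefSeq (GRCm38.p6), and 18 members had no entry. Software was Python 3.11.15, numpy 2.4.6, pandas 2.3.3, scipy 1.17.1, matplotlib 3.10.9, R 4.3.3, edgeR 4.0.16 and DESeq2 1.42.0.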

Additional observations from a re-analysis of the deposited data

How the results depend on the processing

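No paired analysis was possible because the series holds a single group. The class I over class II level kept its sign under all alternatives that were run. Against 2.07 on the log2 scale, it was 1.28 with presenting chains only, 0.99 with the classical heavy chains against H2-Aa, H2-Ab1 and H2-Eb1, 1.56 without Cd74 and B2m, and 0.91, 0.94 and 0.88 as a difference of medians with pseudocounts of 0.5, 0.1 and 1. The medians used members with 10 or more counts, a filter that left out class I genes but no class II gene. Over all members, the middle class I genes lay below the middle class II genes in replicate 1, as given above. Leaving out 1 library gave 1.75 to 2.39. The difference of class ratios was -0.67, and -0.64 with TPM sums, -1.01 with presenting chains and -0.91 without Cd74 and B2m. Calls were 12 of the 47 tested members higher and 15 lower in replicate 1, beside 27.2% higher and 16.9% lower of all tested genes. By edgeR's exact test the counts were 0 for all members and for each class in each direction, beside 66 of all 23690 genes. Without the filter on low counts 0 class II genes were lower, through Ciita, where 11.9% of all genes were lower. At 1 CPM in both libraries 1 class I gene was higher, since H2-Bl, H2-M5 and H2-M9 were then not tested. Of all genes at that level, 32.9% were higher. B2m reversed with TMM (-0.034), DESeq2 size factors (-0.040) and edgeR (-0.034). Scaled to macrophage markers, 6 members were lower, with 7 class I genes higher, 6 lower and 0 class II genes lower. Of all genes 40.2% were then higher and 9.46% lower. Scaled to keratinocyte markers, 39 members were higher and 0 lower, with 26 class I genes higher, 0 lower and 0 class II genes lower. Here 73.3% of all genes were higher and 1.27% lower. Scaled to Langerhans cell markers, 3 members were higher and 33 lower, with 2 class I genes higher and 25 lower and 1 class II gene higher and 5 lower. In that setting 4.66% of all genes were higher and 59.8% lower. The marker scalings were chosen after seeing the data. Depth limits the rarest genes: the log2 ratio had a counting interval of -2.20 to 1.44 for H2-Oa and -0.55 to 3.97 for H2-T3.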

Other observations

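Of the 4 H2 names with -ps that were left out, H2-T-ps had 171 counts in replicate 1 and 196 in replicate 2, H2-M6-ps had 3 and 1, and H2-M4-ps and H2-M10.5-ps1 had none. By RefSeq's annotation, 48 of the 56 members lie on chromosome 17, and Nlrc5 and Psmb10 both lie on chromosome 8.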
